A study of Mus musculus with 9 samples.

Results

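The genes described here are the integrin subunits, the laminin chains and the nidogens. They were chosen by gene symbol among the protein-coding genes of the deposited table, as every numbered or lettered integrin alpha and beta subunit, every laminin alpha, beta and gamma chain and both nidogens. This gave 39 genes of 54532 in all, of which 22046 are protein-coding: 18 integrin alpha subunits, 8 integrin beta subunits, 11 laminin chains and 2 nidogens. Their expression was measured by RNA-seq in the lambdoidal junction of C57BL/6J mouse embryos, the place where the nasal and maxillary prominences meet and fuse into the upper lip and primary palate. There were 3 libraries at each of 3 stages, named by the day of embryonic development as E10.5, E11.5 and E12.5, and each library was made from tissue pooled over several untreated embryos. Whole tissue was used, so epithelium, mesenchyme, vessels and blood cells are all in the same library.

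Laminins are large proteins made of 1 alpha, 1 beta and 1 gamma chain. Many of them, though not all, are cross-shaped and polymerize into the sheet on which a basement membrane is built. Nidogens link that sheet to the collagen IV network. Integrins are receptors of 1 alpha and 1 beta subunit that sit in the cell membrane, bind laminin, collagen, fibronectin or other ligands outside the cell, and hold the cytoskeleton inside it. In epithelia the alpha6 subunit pairs with the beta4 subunit in the hemidesmosome and binds the laminin with the Lama3 and Lamb3 chains, which anchors the epidermis. Lama1 is the laminin alpha chain of the early embryo, Lama5 is common in epithelial basement membranes, and Lama2 and Lama4 are chains of muscle and vessel basement membranes and of mesenchyme.

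Between 16581009 and 20836804 reads were counted per library, and levels below are CPM, counts scaled to a common library size, on library sizes scaled by the trimmed mean of M values (TMM). Comparisons of levels between genes use CPM per kilobase of gene length. The third library of E10.5 stood apart. Over all genes its SD of log2 level from the other 2 libraries of its stage was 0.679, against 0.317–0.486 in the other 8 libraries. In that library the summed level of 16 epithelium markers was 1172 CPM, against 643 and 719 CPM in the other E10.5 libraries. There 12 endothelium markers summed to 154 CPM against 429 and 406 CPM, and 12 mesenchyme markers to 1858 CPM against 3128 and 3001 CPM. Of the 37 integrin, laminin and nidogen genes with enough counts to compare, 26 were lower in that library than in the mean of the other 2, and the median difference over all 37 was -0.59 on the log2 scale. The comparisons with E10.5 were also made without it, and calls that changed are given both ways. At E12.5, replicate 2 was higher than replicate 3 for 34 of the same 37 genes, in libraries whose levels moved with gene length (Spearman's rho across genes 0.523 and -0.411). The share of all genes is not given for either count, so neither can be set against a background. The median length of the 39 genes was 6943 bases, and it was 3773 bases over all genes with at least 10 counts.

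At the level of RNA per gene length, the common integrin beta subunit Itgb1 was the highest of the 39 genes at every stage, followed by Itgb5. Itgb1 had a mean of 80.4 ± 19.4, 98.3 ± 5.29 and 110 ± 10.4 CPM per kilobase at the successive stages (SD, n = 3), and Itgb5 had 57.4 ± 12.4, 79.6 ± 0.832 and 77.3 ± 3.64 CPM per kilobase. At E12.5 the next genes were Lamb1 with 23.6 ± 3.77, Nid1 with 22.7 ± 6.69, Itga5 with 21.2 ± 2.63, Lamc1 with 18.2 ± 6.497 and Nid2 with 16.4 ± 4.16 CPM per kilobase, and these neighbours in the order did not differ beyond their spread. Lama3 and Lamb3 and the receptor subunit Itgb4 lay far lower, with Itgb4 at 1.96 ± 0.509, Lama3 at 0.702 ± 0.182 and Lamb3 at 0.475 ± 0.127 CPM per kilobase at E12.5. At the bottom, Itgad had no count in any library, which allows up to 0.144–0.186 CPM, and Itgax had at most 4 counts.

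**Figure D1:**
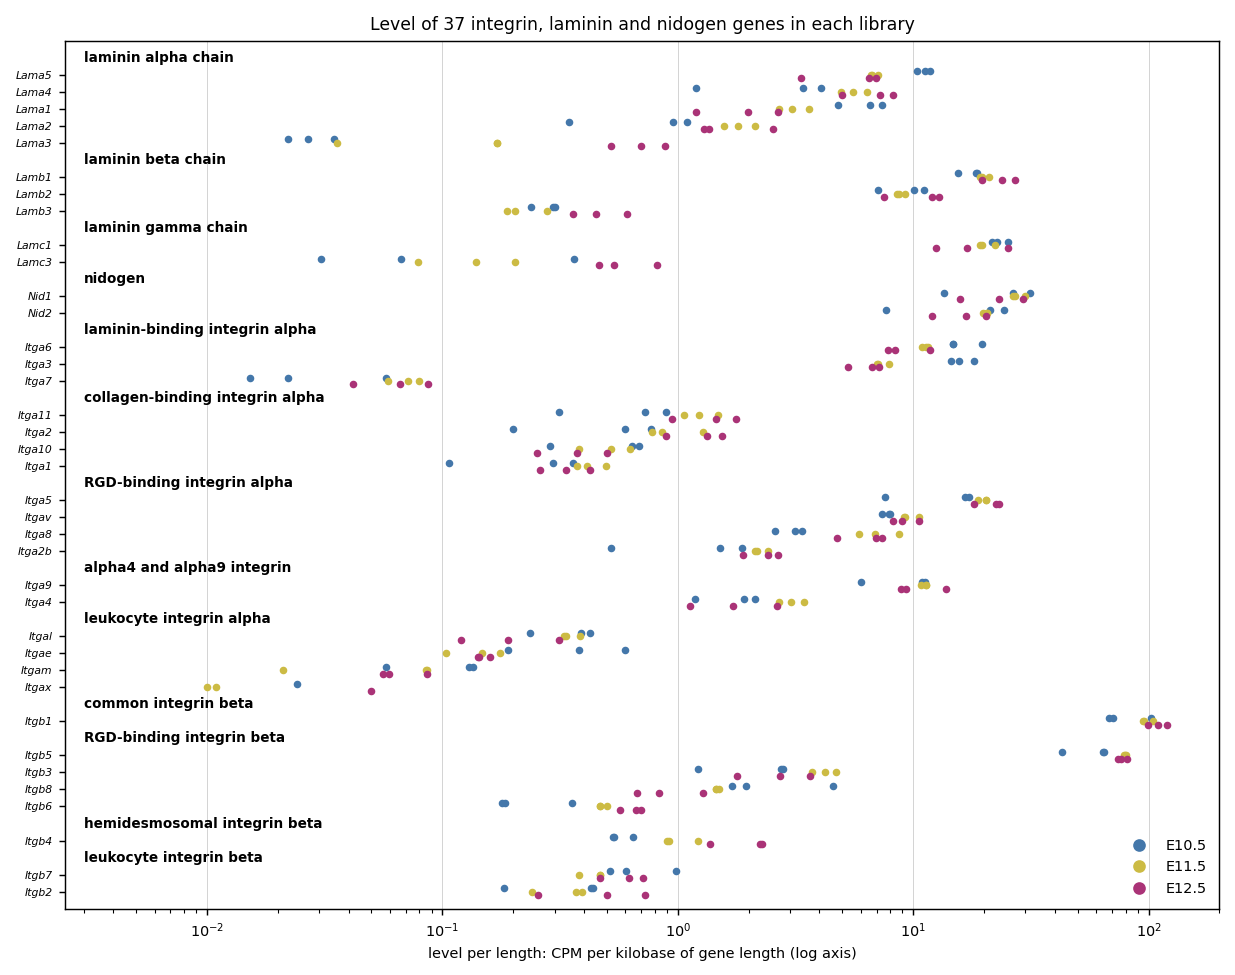
Level of 37 of the 39 genes in each library, as CPM per kilobase of gene length on a log axis, grouped by class. Each point is 1 library and the colors mark the stages. Itgad had no count and is left out, as are the libraries in which Itgax had none. Itgb1 and Itgb5 lie to the right of all other genes, and Lama3 moves from 0.0279 CPM per kilobase at E10.5 to 0.702 at E12.5.

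The stages were then compared in pairs with edgeR's quasi-likelihood test over all genes, with Benjamini-Hochberg adjustment. Genes with an adjusted p no higher than 0.05 and a log2 fold change of 1 or more in size were called DEGs. Of 34 genes in E11.5 vs. E10.5, 2 passed both limits, Itga8 higher (3.46% of all genes were) and Itga3 lower (2.61%), against 6.07% of all genes in either direction. E12.5 vs. E11.5 gave 3 DEGs of 36, all laminin chains and all higher (Lama3, Lamc3 and Lamb3), against 5.1% of all genes in either direction, 4.14% higher and 0.962% lower. In E12.5 vs. E10.5 there were 10 of 35, of which 7 were higher (Lama3, Lamc3, Itgb4, Itgb6, Itga2, Lama4 and Itga8) and 3 lower (Lama1, Itgb8 and Itga3), against 15.0% of all genes in either direction, 9.97% higher and 5.08% lower. The shares were thus 5.88%, 8.33% and 28.6% of the genes tested, and their difference from the background was not tested. In all, 11 of the 39 genes were a DEG in at least 1 comparison. With the adjusted p alone the counts were 7, 4 and 12, against 11.8%, 12.2% and 24.6% of all genes, and the further genes were Itga4, Itgb4, Itga6, Lama1 and Lama5 in the first comparison, Itgb4 in the second, and Itga6 and Lama5 in the third. The libraries of the 2 stages did not overlap for 22 of 34, 10 of 36 and 21 of 35 genes, against 36.7%, 35.3% and 42.4% of all genes. The median log2 fold change of the tested genes was 0.22, -0.06 and 0.27, and that of all genes tested was -0.03, 0.02 and -0.01.

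**Figure D2:**
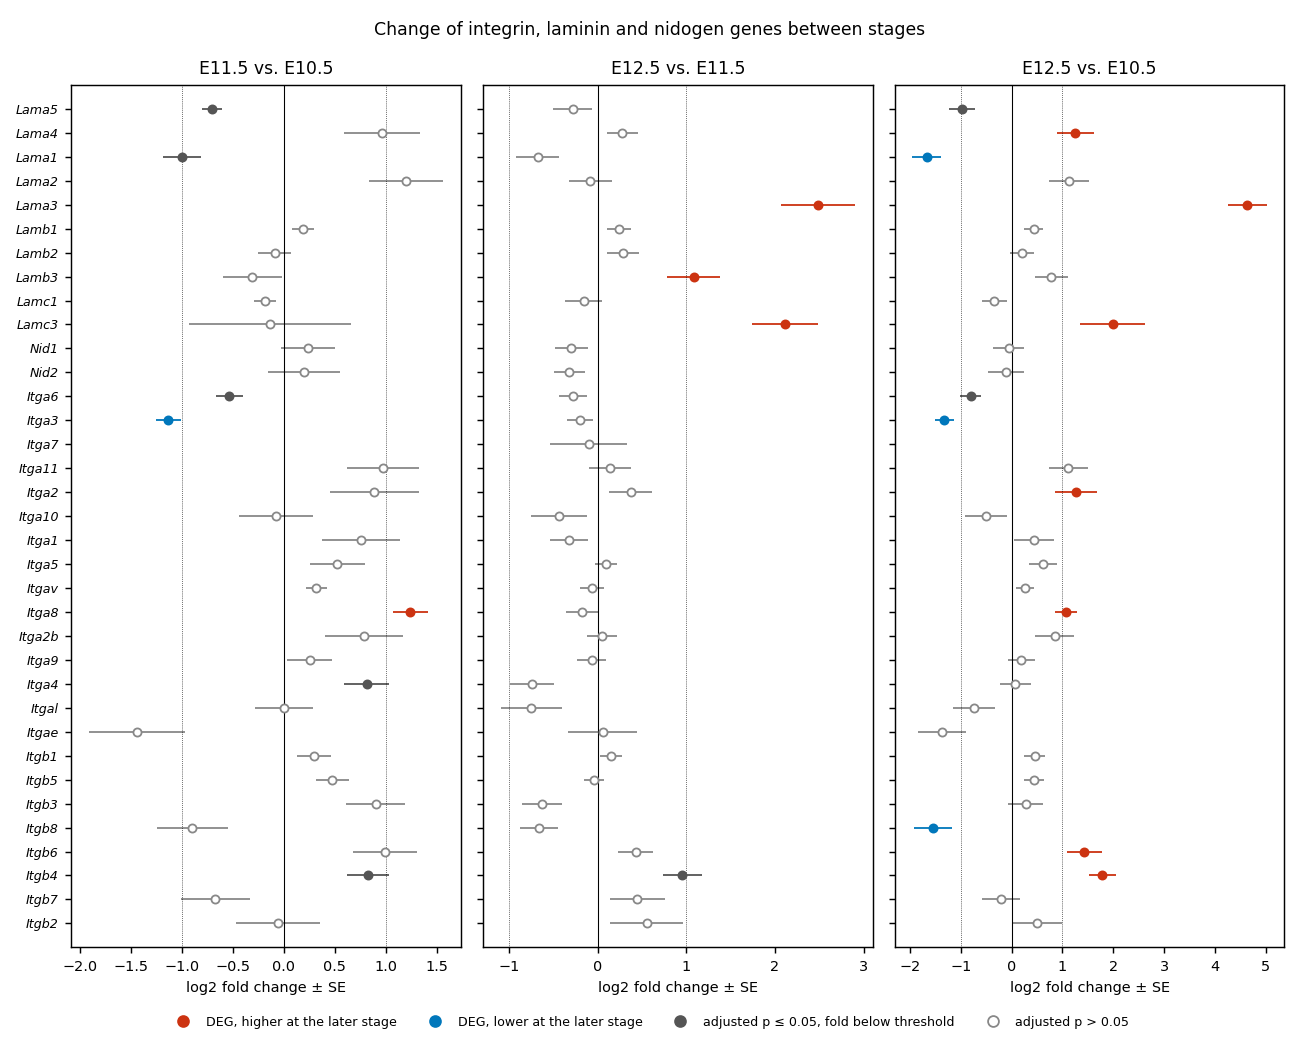
Log2 fold change of the tested genes (points) with its standard error (bars) in the 3 comparisons of stages, with the later stage over the earlier. Red and blue points are DEGs, dark grey points pass the adjusted p alone, open points do not pass it, and dotted lines mark the fold threshold. The 3 DEGs of E12.5 vs. E11.5 are laminin chains, and Lama3 lies farthest to the right in both comparisons in which it was tested.

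Among the laminin chains, Lama3 rose most. Lama3 (ENSMUSG00000024421, GRCm38 chromosome 18, 12333819 to 12583013) is the alpha chain of the laminin that binds the epidermis to the dermis. It had 0.238, 0.290 and 0.372 CPM in the E10.5 libraries, 1.83, 0.385 and 1.84 CPM at E11.5, and 9.52, 7.49 and 5.61 CPM at E12.5. All E12.5 libraries were above all earlier ones, and the second E11.5 library was close to the E10.5 level. Its log2 fold change was 4.63 ± 0.38 (SE), or 24.8-fold, in E12.5 vs. E10.5 (edgeR quasi-likelihood, Benjamini-Hochberg adjusted p = 1.52e-05), and 2.49 ± 0.42 in E12.5 vs. E11.5 (adjusted p = 0.00361). At E10.5 it rested on 4, 5 and 6 counts, and the filter on low counts kept it out of E11.5 vs. E10.5. With all genes of at least 1 count in the fit, its log2 fold change there was 2.16 ± 0.59 (edgeR quasi-likelihood, Benjamini-Hochberg adjusted p = 0.0209). Both tested changes were DEGs in all 6 fits with 1 library left out, where they ranged from 4.43 to 4.81 and from 2.01 to 2.77. In bulk tissue, more cells of a type and more RNA per cell cannot be told apart, and this holds for every difference given here.

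Lamb3, the beta chain that joins Lama3 in the epidermal laminin, had smaller fold changes. Lamb3 (ENSMUSG00000026639, chromosome 1, 193207699 to 193343878) had 1.96, 1.57 and 1.98 CPM at E10.5, 1.34, 1.25 and 1.84 CPM at E11.5, and 2.99, 4.04 and 2.38 CPM at E12.5. The E12.5 libraries were above all others, and those of E10.5 and E11.5 overlapped. Its log2 fold change was 1.08 ± 0.30 in E12.5 vs. E11.5 (edgeR quasi-likelihood, Benjamini-Hochberg adjusted p = 0.0382), but it kept that call in 1 of the 6 fits without 1 library, with values from 0.85 to 1.25 and adjusted p of 0.0292–0.149, and lost it with the trend of GC content removed (1.01, adjusted p = 0.0524). From E10.5 to E12.5 the change of 0.78 ± 0.33 did not pass (edgeR quasi-likelihood, Benjamini-Hochberg adjusted p = 0.107).

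Lamb3 is shown with its promoters from the RefSeq table (GRCm38.p6) as a DEG of this laminin, and 2 start sites are listed for it, both inside the gene interval of the deposited table. Lama5, the main epithelial alpha chain, which was lower at both later stages, is shown beside it. In the sequences, from 250 bases before the start to 50 after, capitals mark the letters CAGGTG (an E-box) or GGGCGG (a GC box), or their reverse complements CACCTG and CCGCCC. The letters TGANTCA (the AP-1 motif), also searched on both strands, were in none of the 3.
Lamb3, chr1:193301744-193302043, plus strand: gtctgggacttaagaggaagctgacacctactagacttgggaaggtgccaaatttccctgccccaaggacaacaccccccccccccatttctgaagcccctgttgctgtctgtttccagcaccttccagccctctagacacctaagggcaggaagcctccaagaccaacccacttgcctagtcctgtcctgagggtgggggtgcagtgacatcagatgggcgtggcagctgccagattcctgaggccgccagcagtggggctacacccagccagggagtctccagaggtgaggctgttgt
Lamb3, chr1:193301993-193302292, plus strand: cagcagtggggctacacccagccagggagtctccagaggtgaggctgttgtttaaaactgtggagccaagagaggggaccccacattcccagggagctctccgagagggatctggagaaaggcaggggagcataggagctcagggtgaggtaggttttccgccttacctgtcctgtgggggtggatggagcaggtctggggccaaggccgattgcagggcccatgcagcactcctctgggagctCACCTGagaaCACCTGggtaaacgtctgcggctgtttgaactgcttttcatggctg
Lama5, chr2:180225810-180226109, minus strand: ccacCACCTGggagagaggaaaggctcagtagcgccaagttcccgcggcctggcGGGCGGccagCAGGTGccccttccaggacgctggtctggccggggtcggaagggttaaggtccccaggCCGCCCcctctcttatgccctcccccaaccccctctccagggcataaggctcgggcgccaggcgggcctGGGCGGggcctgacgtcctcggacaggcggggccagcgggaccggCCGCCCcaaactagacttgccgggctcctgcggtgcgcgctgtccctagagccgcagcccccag
The first Lamb3 promoter held none of the motifs. The second held 2 copies of CACCTG, starting 6 bases before and 4 bases after the start site. The Lama5 promoter held 4 GC boxes and 2 E-boxes. Of 32817 promoters of this length in the table, 7.81% held TGANTCA, 35.6% held GGGCGG and 20.2% held CAGGTG. Of the 39 genes, 24 were in the table with 27 promoters, of which 11.1%, 48.1% and 29.6% held them. Itga3, Itga9 and Itgax were the genes with TGANTCA. A match of letters is not a binding site.

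Lamc3, a gamma chain known from brain, retina and skin, also rose. Lamc3 (ENSMUSG00000026840, chromosome 2, 31887291 to 31946539) had 2.20, 0.406 and 0.186 CPM at E10.5, 1.24, 0.481 and 0.843 CPM at E11.5, and 2.82, 4.96 and 3.28 CPM at E12.5. The E12.5 libraries were above all others, and the first E10.5 library was higher than any of E11.5. The log2 fold change was 2.11 ± 0.37 in E12.5 vs. E11.5 (edgeR quasi-likelihood, Benjamini-Hochberg adjusted p = 0.00461) and was a DEG in all 6 fits without 1 library, though not in the fit on all 9 libraries (adjusted p = 0.0589). In E12.5 vs. E10.5 it was 1.98 ± 0.64 (edgeR quasi-likelihood, Benjamini-Hochberg adjusted p = 0.0446), and the call was kept in 1 of 6 such fits, with values from 1.52 without the third E10.5 library to 3.59 without the first. Of the exon bases of Lamc3, 6.27% also belong to Gm13441 on the other strand, and whether reads were counted by strand is not given in the sources used here.

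The hemidesmosomal integrin subunit Itgb4 rose in both intervals. Itgb4 (ENSMUSG00000020758, chromosome 11, 115974709 to 116008412) had 3.74, 4.53 and 3.78 CPM at E10.5, 8.55, 6.35 and 6.43 CPM at E11.5, and 15.7, 16.0 and 9.66 CPM at E12.5. No stage overlapped with another. Its log2 fold change was 1.79 ± 0.27, or 3.45-fold, in E12.5 vs. E10.5 (edgeR quasi-likelihood, Benjamini-Hochberg adjusted p = 0.000775), 0.82 ± 0.21 in E11.5 vs. E10.5 (adjusted p = 0.0398) and 0.95 ± 0.22 in E12.5 vs. E11.5 (adjusted p = 0.0185). It was a DEG over the whole span in all 6 fits without 1 library, from 1.66 to 1.98. Its calls within the intervals were less firm, with an adjusted p of up to 0.163 in the first interval and 0.102 in the second when 1 library was left out, and of 0.0583 in the latter with the GC trend removed (edgeR quasi-likelihood, Benjamini-Hochberg adjusted p in each case). Its exons share 7.66% of their bases with B230344G16Rik on the other strand.

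Itga6, which pairs with Itgb4 in the hemidesmosome and with Itgb1 elsewhere, went the other way. Itga6 (ENSMUSG00000027111, chromosome 2, 71745616 to 71858416) had 133, 133 and 178 CPM at E10.5, 103, 98.8 and 104 CPM at E11.5, and 75.5, 106 and 70.2 CPM at E12.5, so that every E10.5 library was above every later one. It fell by 0.53 ± 0.13 on the log2 scale in E11.5 vs. E10.5 (edgeR quasi-likelihood, Benjamini-Hochberg adjusted p = 0.0408) and by 0.81 ± 0.21 in E12.5 vs. E10.5 (adjusted p = 0.0176), which is below the fold threshold. Leaving out 1 library gave values of -0.61 to -0.38 and -1.01 to -0.65, with adjusted p of up to 0.156 and 0.0894 (edgeR quasi-likelihood, Benjamini-Hochberg adjusted p). The mean level per length of Itga6 was above that of Itgb4 at every stage, and the 2 were nearest at E12.5. Itga6 had 16.4, 11.3 and 9.31 CPM per kilobase at the successive stages, and Itgb4 had 0.573, 1.01 and 1.96. Itga3 (ENSMUSG00000001507, chromosome 11, 95044474 to 95076801), the other epithelial laminin receptor subunit, had 82.4, 89.9 and 103 CPM at E10.5, 40.1, 45.0 and 40.5 CPM at E11.5, and 38.4, 41.0 and 30.1 CPM at E12.5. The lowest E10.5 library was well above the highest later one, and E11.5 and E12.5 overlapped. Its log2 fold change was -1.13 ± 0.12 in E11.5 vs. E10.5 (edgeR quasi-likelihood, Benjamini-Hochberg adjusted p = 0.00179) and -1.32 ± 0.19 in E12.5 vs. E10.5 (adjusted p = 0.000564), a DEG in all 6 fits without 1 library in both. With the third E10.5 library left out and the GC trend removed, the first value was -0.85, past the adjusted p but not the fold threshold. Itga7, the laminin receptor subunit of muscle, had 2–13 counts per library and was tested in E12.5 vs. E11.5 only, where it did not pass.

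**Figure D3:**
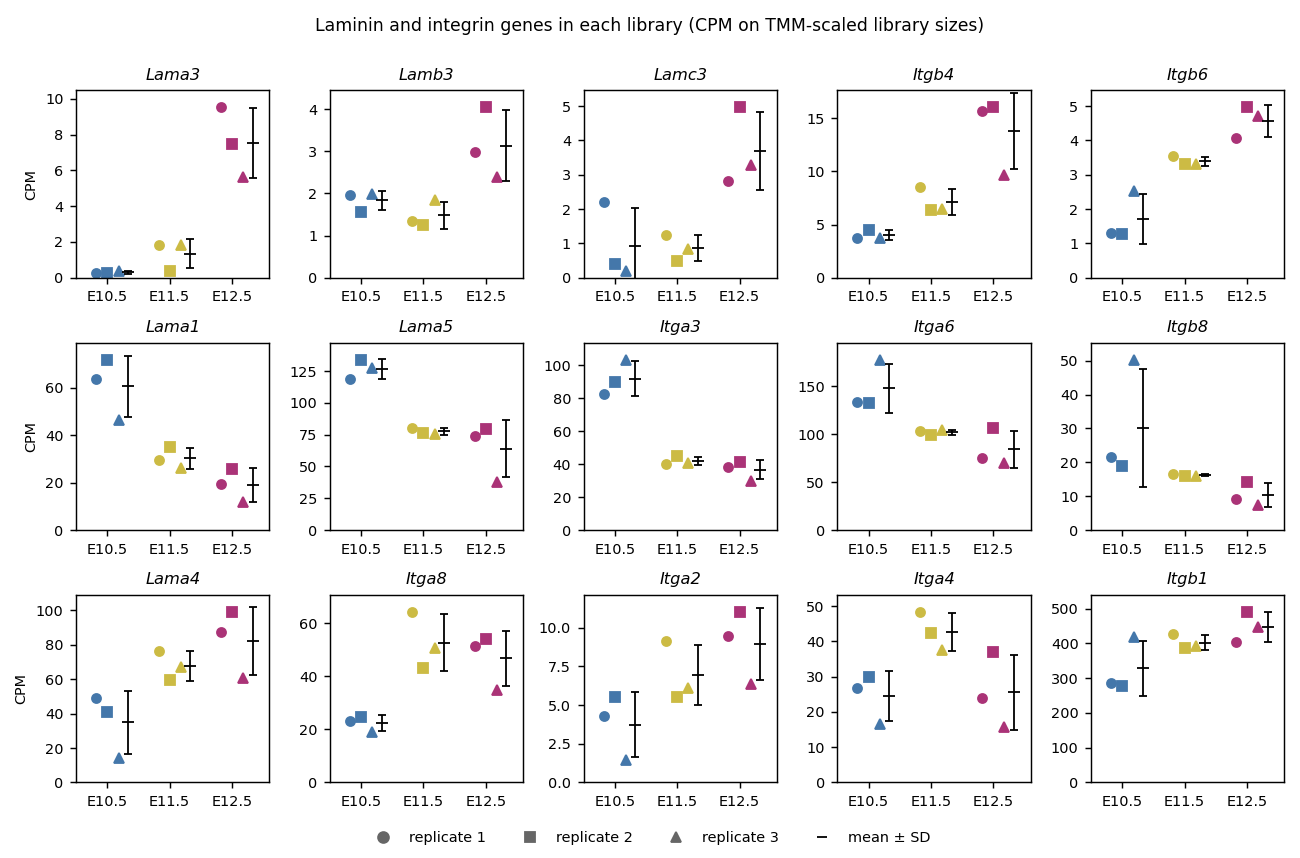
Level of 15 genes in each library, in CPM on TMM-scaled library sizes, with replicates as separate symbols and the mean ± SD (n = 3) as a bar beside them. The axes start at 0 and differ between genes, and the lower arm of the Lamc3 bar at E10.5 is cut off there. Lama3, Itgb4 and Itgb6 rise, Lama1, Lama5, Itga3 and Itga6 are highest at E10.5, and the third E10.5 library (triangle) stands off for Itgb8, Lama4, Itga2 and Itgb1.

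Lama1, the alpha chain of the early embryo, and Lama5, that of epithelia, were lower at the later stages. Lama1 (ENSMUSG00000032796, chromosome 17, 67697259 to 67822647) had 63.5, 71.7 and 46.3 CPM at E10.5, 29.6, 34.8 and 26.1 CPM at E11.5, and 19.2, 25.8 and 11.6 CPM at E12.5. No stage overlapped with another. The log2 fold change was -1.67 ± 0.28 in E12.5 vs. E10.5 (edgeR quasi-likelihood, Benjamini-Hochberg adjusted p = 0.00173) and -0.998 ± 0.18 in E11.5 vs. E10.5 (adjusted p = 0.0128), just short of the fold threshold. In the fits without 1 library the first-interval value was -1.16 to -0.86, with an edgeR quasi-likelihood, Benjamini-Hochberg adjusted p of up to 0.0813. The further difference of -0.68 ± 0.24 in E12.5 vs. E11.5 did not pass (adjusted p = 0.0897). Lama5 (ENSMUSG00000015647, chromosome 2, 180176373 to 180225859) had 119, 134 and 128 CPM at E10.5, 80.7, 76.5 and 75.4 CPM at E11.5, and 74.0, 79.5 and 38.05 CPM at E12.5. All E10.5 libraries were above all later ones, and the third E12.5 library was lowest. It fell by 0.71 ± 0.10 on the log2 scale in E11.5 vs. E10.5 (edgeR quasi-likelihood, Benjamini-Hochberg adjusted p = 0.00438) and by 0.98 ± 0.25 in E12.5 vs. E10.5 (adjusted p = 0.0165).

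Lama4 rose over the whole span, though its call turned on single libraries, and Lama2 did not pass with all libraries in the test as set. Lama4 (ENSMUSG00000019846, chromosome 10, 38965515 to 39110188), found around vessels, had 49.0, 41.1 and 14.4 CPM at E10.5, 76.6, 59.6 and 67.0 CPM at E11.5, and 87.6, 98.9 and 60.4 CPM at E12.5. Every E10.5 library was below every later one, and the third was lowest. Lama4 rose by 1.25 ± 0.37 on the log2 scale in E12.5 vs. E10.5 (edgeR quasi-likelihood, Benjamini-Hochberg adjusted p = 0.0302), and by 0.88 ± 0.22 without that library (adjusted p = 0.0130). The DEG call was kept in 3 of the 6 fits without 1 library (edgeR quasi-likelihood, Benjamini-Hochberg adjusted p of up to 0.1095). In E11.5 vs. E10.5 its value was 0.96 ± 0.37 with all libraries (edgeR quasi-likelihood, Benjamini-Hochberg adjusted p = 0.139) and 0.59 ± 0.11 without the third E10.5 one (adjusted p = 0.00100). Lama2, the alpha chain of muscle basement membrane, had 5.64–17.9, 25.6–34.7 and 21.1–41.6 CPM at the successive stages, and its log2 fold changes of 1.1995 ± 0.36 into E11.5 and 1.12 ± 0.39 over the whole span did not pass (edgeR quasi-likelihood, Benjamini-Hochberg adjusted p = 0.0714 and 0.0590). Without the third E10.5 library the first was 0.84 ± 0.13 and passed (edgeR quasi-likelihood, Benjamini-Hochberg adjusted p = 0.000342), and the second was 0.77 ± 0.29 (adjusted p = 0.0664). In other fits of all libraries, Lama2 was a DEG in both comparisons with DESeq2, with all genes of at least 1 count and with a replicate block. Over the whole span it also was with upper quartile normalization or all 9 libraries in 1 fit. With the GC trend removed it was a DEG in neither. Skeletal muscle markers summed to 76.7–139, 193–223 and 164–203 CPM. Most of that sum was Pax3, with means of 34.95, 92.6 and 107 CPM at the successive stages, and Pax7, with 61.8, 106 and 70.3 CPM, both also expressed outside muscle, while Des, the muscle intermediate filament, had 15.3, 3.29 and 0.807 CPM and Myod1 and Myog stayed under 1 CPM. The endothelium markers summed to 154–429, 395–397 and 419–447 CPM. Their part in the values of Lama2 and Lama4 was not tested.

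The make-up of the laminin alpha chains therefore differed between the stages. As shares of the summed level per length of the 5 alpha chains, Lama5 made up 47.1, 49.9 and 63.8% in the E10.5 libraries, 37.7, 39.9 and 39.3% at E11.5, and 36.2, 33.1 and 29.4% at E12.5. Lama1 had 29.6, 31.4 and 27.2%, then 16.3, 21.3 and 16.0%, then 11.03, 12.6 and 10.6%. Lama4 had 18.3, 14.5 and 6.79%, then 33.8, 29.3 and 32.9%, then 40.3, 38.9 and 44.1%. For each of these chains no stage overlapped with another, and Lama4 passed Lama5 as the largest share in all 3 E12.5 libraries. Lama3 went from a mean of 0.137 ± 0.0524% at E10.5 to 4.28 ± 0.855% at E12.5, and Lama2 from 3.66 ± 1.53% to 10.3 ± 2.44% (SD, n = 3). The sum of the 5 chains was 17.5–23.55, 16.9–18.8 and 11.4–21.1 CPM per kilobase, with overlap between the stages. The shares are given as a description, with no test.

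**Figure D4:**
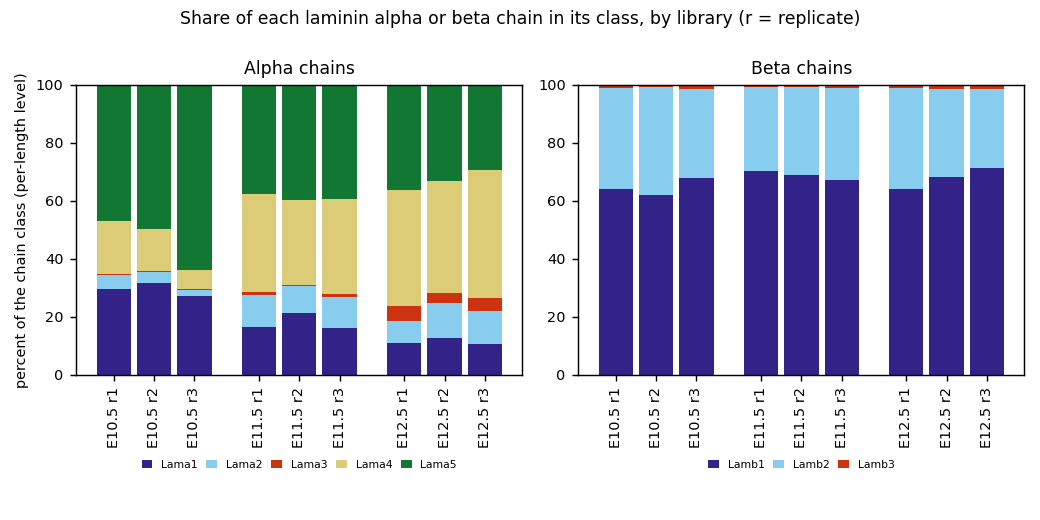
Share of each laminin alpha and beta chain in the summed level per length of its chain class (percent) in each library, with 1 bar for each library. In the left panel Lama5 and Lama1 shrink and Lama4 grows from E10.5 to E12.5, while Lamb1 in the right panel holds most of its class in every library.

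The beta and gamma chains that laminins of many tissues share, and the nidogens, did not pass in any comparison with all libraries. Lamb1 had 185, 184 and 154 CPM at E10.5, 208, 191 and 194 CPM at E11.5, and 236, 270 and 195 CPM at E12.5, and its change of 0.43 ± 0.18 in E12.5 vs. E10.5 did not pass (edgeR quasi-likelihood, Benjamini-Hochberg adjusted p = 0.112). It made up 62.0–71.4% of the beta chains in all libraries. Lamc1, the gamma chain of most laminins, had 187, 209 and 180 CPM at E10.5, 185, 162 and 158 CPM at E11.5, and 140, 209 and 104 CPM at E12.5. Its E12.5 libraries spanned those of the other stages, with a log2 fold change of -0.34 ± 0.24 from E10.5. Lamb2, the beta chain of muscle and kidney, had 43.05–78.1 CPM with all stages overlapping. Without the third E10.5 library, Lamc1 at -0.23 ± 0.079 and Lamb2 at -0.26 ± 0.079 passed in E11.5 vs. E10.5, below the fold threshold (edgeR quasi-likelihood, Benjamini-Hochberg adjusted p = 0.0335 and 0.0207). Nid1 had 184, 217 and 94.1 CPM at E10.5, 208, 184 and 188 CPM at E11.5, and 160, 203 and 110 CPM at E12.5, and Nid2 had 39.8–126 CPM over the 9 libraries. Neither nidogen was separated between any stages, and their log2 fold changes in E12.5 vs. E10.5 were -0.06 ± 0.30 and -0.11 ± 0.35.

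Among the subunits that bind fibronectin and other ligands with an RGD sequence, Itga8 rose early and Itgb6 and Itgb8 went in opposite directions. Itga8 (ENSMUSG00000026768, chromosome 2, 12106632 to 12301922), a mesenchymal receptor of nephronectin and fibronectin, had 23.2, 24.7 and 19.1 CPM at E10.5, 64.1, 43.3 and 50.6 CPM at E11.5, and 51.3, 54.2 and 34.9 CPM at E12.5. All later libraries were above all E10.5 ones, and E11.5 and E12.5 overlapped. It rose by 1.24 ± 0.17 on the log2 scale, or 2.36-fold, in E11.5 vs. E10.5 (edgeR quasi-likelihood, Benjamini-Hochberg adjusted p = 0.00466), in each of 6 fits without 1 library. In E12.5 vs. E10.5 it rose by 1.08 ± 0.21 (edgeR quasi-likelihood, Benjamini-Hochberg adjusted p = 0.00451), and without the third E10.5 library by 0.98, below the fold threshold. That call was kept in 4 of the 6 fits without 1 library.

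Itgb6 and Itgb8 both pair with Itgav and free latent TGF-beta. Itgb6 (ENSMUSG00000026971, chromosome 2, 60598292 to 60722643), which is made by epithelia, had 1.31, 1.28 and 2.54 CPM at E10.5, 3.55, 3.32 and 3.32 CPM at E11.5, and 4.06, 4.96 and 4.71 CPM at E12.5. No stage overlapped with another, and the third E10.5 library was the highest of its stage. Its log2 fold change was 1.43 ± 0.34 in E12.5 vs. E10.5 (edgeR quasi-likelihood, Benjamini-Hochberg adjusted p = 0.0119), and 1.83 ± 0.30 without that library. In E11.5 vs. E10.5 it was 0.995 ± 0.31 and did not pass (edgeR quasi-likelihood, Benjamini-Hochberg adjusted p = 0.0804), but without that library it was 1.39 ± 0.28 and passed (adjusted p = 0.00173). With all libraries and the GC trend removed it was 1.01 ± 0.26 there and a DEG (edgeR quasi-likelihood, Benjamini-Hochberg adjusted p = 0.0271). Itgb8 (ENSMUSG00000025321, chromosome 12, 119158022 to 119238802), found in neural tissue and epithelia, had 21.6, 18.8 and 50.3 CPM at E10.5, 16.5, 16.1 and 16.1 CPM at E11.5, and 9.24, 14.2 and 7.39 CPM at E12.5. No stage overlapped, and the third E10.5 library was more than 2 times any other. It fell by 1.55 ± 0.38 on the log2 scale in E12.5 vs. E10.5 (edgeR quasi-likelihood, Benjamini-Hochberg adjusted p = 0.0129), and by 0.96 ± 0.26 without that library (adjusted p = 0.0188). The DEG call was kept in 3 of the 6 fits without 1 library (edgeR quasi-likelihood, Benjamini-Hochberg adjusted p of up to 0.0704). In E11.5 vs. E10.5 its value of -0.90 ± 0.35 did not pass with all libraries (edgeR quasi-likelihood, Benjamini-Hochberg adjusted p = 0.139), and without the third E10.5 one it was -0.31 ± 0.11 and passed (adjusted p = 0.0415). With all libraries and the GC trend removed it was -0.81 ± 0.21 there and passed (edgeR quasi-likelihood, Benjamini-Hochberg adjusted p = 0.02745). Neural tissue markers summed to 425–554 CPM at E10.5, with the highest value in the library of replicate 3, to 264–288 CPM at E11.5 and to 357–385 CPM at E12.5, and their part in the values of Itgb8 was not tested.

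None of the RGD-binding subunits with the highest levels passed with all libraries in the test as set. Itgb5, a receptor subunit for vitronectin, had 230, 228 and 153 CPM at E10.5, 284, 280 and 285 CPM at E11.5, and 270, 289 and 264 CPM at E12.5, and its change of 0.44 ± 0.19 in E12.5 vs. E10.5 did not pass (edgeR quasi-likelihood, Benjamini-Hochberg adjusted p = 0.127). Itga5, the fibronectin receptor alpha subunit, had 82.0, 85.3 and 37.6 CPM at E10.5, 93.2, 100.5 and 100.3 CPM at E11.5, and 114, 110.5 and 89.9 CPM at E12.5, with a change of 0.63 ± 0.27 that did not pass either (adjusted p = 0.123). Both had all later libraries above all E10.5 ones, as had Itgav at 79.3–85.5 CPM against 87.8–114 CPM. Itgb1, which pairs with most alpha subunits here, had 287, 278 and 419 CPM at E10.5, 426, 386 and 392 CPM at E11.5, and 405, 490 and 448 CPM at E12.5. The third E10.5 library lay among the later ones, and the log2 fold change in E12.5 vs. E10.5 was 0.45 ± 0.20 with it (edgeR quasi-likelihood, Benjamini-Hochberg adjusted p = 0.131) and 0.68 ± 0.16 without it (adjusted p = 0.0110). In E11.5 vs. E10.5 without that library all 4 passed the adjusted p below the fold threshold, Itgb1 with 0.51 ± 0.068, Itgav with 0.33 ± 0.079, Itgb5 with 0.31 ± 0.061 and Itga5 with 0.23 ± 0.070 (edgeR quasi-likelihood, Benjamini-Hochberg adjusted p = 9.73e-05, 0.00515, 0.00173 and 0.0188). With all libraries and the GC trend removed, Itgb5 and Itga5 passed there as well (edgeR quasi-likelihood, Benjamini-Hochberg adjusted p = 0.00277 and 0.0378), as did Itgb1 and Itga5 in E12.5 vs. E10.5 (adjusted p = 0.0262 and 0.0441).

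Itgb3, the beta subunit of platelets and of vitronectin receptors, was highest at E11.5, with a range of 7.18–16.6, 22.02–27.7 and 10.5–21.6 CPM at the successive stages. Neither its change of 0.90 ± 0.29 into E11.5 nor that of -0.63 ± 0.22 out of it passed (edgeR quasi-likelihood, Benjamini-Hochberg adjusted p = 0.0863 and 0.0898), though without the third E10.5 library the first was 0.60 ± 0.12 and passed (adjusted p = 0.00158). With all libraries and the GC trend removed the first was 0.91 ± 0.25 and passed (edgeR quasi-likelihood, Benjamini-Hochberg adjusted p = 0.0347). Its platelet partner Itga2b had 2.85–10.2, 11.6–13.2 and 10.3–14.6 CPM, and did not pass with all libraries in the test as set. Itga2b passed in E11.5 vs. E10.5 without the third E10.5 library (0.41 ± 0.15, edgeR quasi-likelihood, Benjamini-Hochberg adjusted p = 0.0415). Without the first E10.5 library it was a DEG with higher level in E12.5 vs. E10.5. The 9 megakaryocyte markers summed to 12.8–20.03, 36.7–46.2 and 35.8–49.9 CPM at the 3 stages. Their part in the values of Itga2b and Itgb3 was not tested.

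Of the alpha subunits that bind collagen, Itga2 (ENSMUSG00000015533, chromosome 13, 114833081 to 114932100), found on epithelia and platelets, had 4.28, 5.51 and 1.43 CPM at E10.5, 9.15, 5.53 and 6.11 CPM at E11.5, and 9.47, 11 and 6.38 CPM at E12.5. Each E12.5 library was above each E10.5 one. Its log2 fold change in E12.5 vs. E10.5 was 1.26 ± 0.41 (edgeR quasi-likelihood, Benjamini-Hochberg adjusted p = 0.0459), and 0.88 ± 0.28 without the third E10.5 library, and the call was kept in 1 of 6 fits without 1 library. Itga11, a collagen receptor subunit of mesenchyme, was the highest of the 4 per length and had 4.58, 3.71 and 1.61 CPM at E10.5, 6.35, 5.48 and 7.58 CPM at E11.5, and 7.49, 9.06 and 4.83 CPM at E12.5. All later libraries were above all E10.5 ones, and its change of 1.12 ± 0.38 in E12.5 vs. E10.5 was just outside the threshold (edgeR quasi-likelihood, Benjamini-Hochberg adjusted p = 0.0535). Other fits of all libraries made it a DEG there, with DESeq2, upper quartile normalization, a replicate block, all 9 libraries in 1 fit or the GC trend removed. Without the third E10.5 library it passed in E11.5 vs. E10.5 (0.65 ± 0.21, edgeR quasi-likelihood, Benjamini-Hochberg adjusted p = 0.0270). With all libraries and the GC trend removed it was a DEG there (1.02 ± 0.29, edgeR quasi-likelihood, Benjamini-Hochberg adjusted p = 0.0368). Itga1 had 1.98–9.22 CPM and Itga10, which shares 33.5% of its exon bases with Gm42957 on the same strand, 1.31–3.54 CPM, and neither passed in any comparison.

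The alpha4 and alpha9 subunits, receptors of fibronectin, VCAM1 and tenascins, had different patterns of level over the stages. Itga4 had 26.9, 29.9 and 16.5 CPM at E10.5, 48.3, 42.4 and 37.6 CPM at E11.5, and 24.0, 36.9 and 15.7 CPM at E12.5. The E11.5 libraries were above all of E10.5 and E12.5. It rose by 0.81 ± 0.22 on the log2 scale into E11.5 (edgeR quasi-likelihood, Benjamini-Hochberg adjusted p = 0.0485). With the GC trend removed it was 0.75 and did not pass (edgeR quasi-likelihood, Benjamini-Hochberg adjusted p = 0.103), and the fits without 1 library gave 0.60 to 0.98 with an edgeR quasi-likelihood, Benjamini-Hochberg adjusted p of up to 0.1895. The value out of E11.5 was -0.75 ± 0.25 and did not pass (edgeR quasi-likelihood, Benjamini-Hochberg adjusted p = 0.0764). Without the second E12.5 library Itga4 was a DEG with lower level there. Itga9, the higher of the pair per length, had 84.1, 86.2 and 46.0 CPM at E10.5, 87.5, 82.7 and 86.9 CPM at E11.5, and 71.8, 106 and 68.2 CPM at E12.5, with every stage overlapping.

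The integrins of leukocytes were low. Itgal, the highest of the alpha subunits of this class per length at E11.5 and E12.5 but below Itgae at E10.5, had 2.56, 2.79 and 1.55 CPM at E10.5, 2.53, 2.16 and 2.21 CPM at E11.5, and 0.789, 2.05 and 1.25 CPM at E12.5, and Itgb7, the higher beta subunit, had 1.66, 2.73 and 1.43, then 1.29, 1.30 and 1.05, then 1.30, 1.73 and 1.97 CPM. Neither passed in any comparison with all libraries in the test as set, and Itgal was a DEG with lower level in E12.5 vs. E11.5 without the second E12.5 library. Itgae had 0.867–2.73 CPM at E10.5 and 0.474–0.807 CPM later without overlap, and its log2 fold change in E12.5 vs. E10.5 was -1.38 ± 0.47 with all libraries (edgeR quasi-likelihood, Benjamini-Hochberg adjusted p = 0.0538) and -1.70 ± 0.41 without the third E10.5 library (adjusted p = 0.0112). With all libraries and the GC trend removed, Itgae was a DEG there (-1.38 ± 0.45, edgeR quasi-likelihood, Benjamini-Hochberg adjusted p = 0.0393). Itgb2, the partner of most of them, had 9–41 counts, and Itgam 2–11 counts, with 68.7% of the Itgam exon bases shared with Gm49368 on the same strand. The 12 leukocyte markers summed to 32.8–47.7 CPM at E10.5 and 55.6–61.3 CPM at E12.5.

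Without the third E10.5 library, 22 of the 36 genes tested in E11.5 vs. E10.5 passed the adjusted p alone, against 39.6% of all genes, and 13 of 35 did in E12.5 vs. E10.5, against 30.1% of all genes. Of these, 14 and 2 had not passed with all libraries. With the fold threshold, E11.5 vs. E10.5 had 6 DEGs among its 36 tested genes (Itga3, Itga8, Itgae, Itgb6, Lama1 and Lama3), against 9.79% of all genes, and 6 of 35 in E12.5 vs. E10.5 (Itga3, Itgae, Itgb4, Itgb6, Lama1 and Lama3), against 16.6% of all genes. The genes that left the second list were Lama4, Itgb8, Itga2 and Itga8, by the fold threshold alone, and Lamc3. The calls made in E12.5 vs. E10.5 with all libraries that were also made in each of the 6 fits without 1 library were those of Lama3, Lama1, Itga3, Itgb4 and Itgb6.

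**Figure D5:**
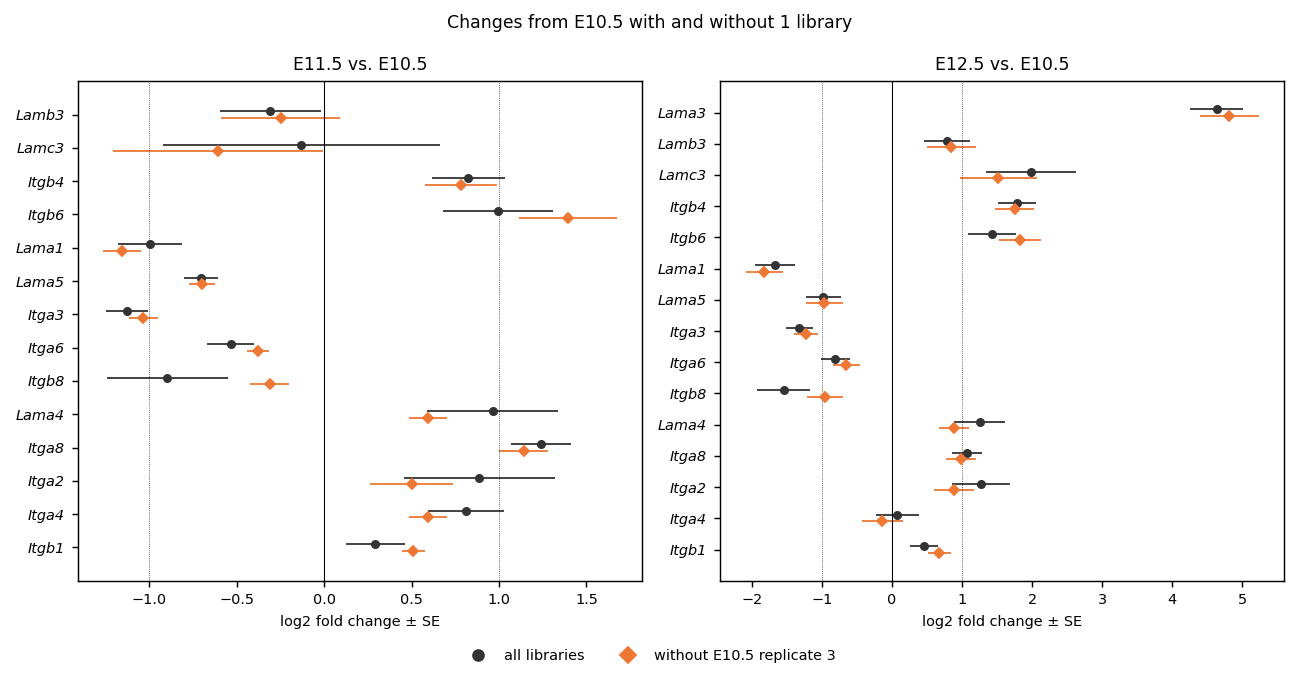
Log2 fold change with its standard error in both comparisons with E10.5, from all libraries (circles) and without the third E10.5 library (diamonds), for the genes of the plot of levels that were tested. Dotted lines mark the fold threshold. Itgb8, Lama4 and Itga2 move toward 0 in both panels without that library, and Itgb6 and Itgb1 move away from it.

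Whether a gene changed by a different amount in the 2 intervals was tested as a contrast over all 9 libraries, as the change from E11.5 to E12.5 minus the change from E10.5 to E11.5. None of the 36 genes tested passed an adjusted p of 0.05 with edgeR's quasi-likelihood test, against 1.18% of all genes, and 5 had an unadjusted p under 0.05. These were Itga8 with -1.41 ± 0.34, Itga4 with -1.55 ± 0.47, Itgb3 with -1.52 ± 0.51, Lamb3 with 1.40 ± 0.54 and Itga3 with 0.93 ± 0.27 on the log2 scale. With all genes of at least 1 count in the fit, Itga8, Itga4, Itgb3 and Lama2 passed. Without the third E10.5 library Itga8 did, and without the second E12.5 library Itga4 did (edgeR quasi-likelihood, Benjamini-Hochberg adjusted p = 0.0442 and 0.0474). So an early change of Itga8 or a late one of Lamb3 was not shown to differ between the intervals by the test as set.

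Of the other genes of the basement membrane, 24 were listed and 22 tested. In E12.5 vs. E10.5, 5 were DEGs with higher and 1 with lower level, against 9.97 and 5.08% of all genes, with a median log2 fold change of 0.13. When the third E10.5 library was left out, 5 were higher and 3 lower, against 16.6% of all genes in either direction. The matricellular gene Smoc2 rose by 4.75 ± 0.43, Col7a1, the anchoring fibril collagen that binds the Lama3 laminin, by 2.78 ± 0.41, the fibulin Fbln2 by 1.91 ± 0.34 and the collagen-binding Sparc by 1.68 ± 0.17, while Frem2, which joins embryonic epithelium to mesenchyme, fell by 1.65 ± 0.28 on the log2 scale. The network collagens Col4a1 and Col4a2, at 421 and 232 CPM at E10.5 and 446 and 263 CPM at E12.5, did not pass. Of 4 hemidesmosome partners, Col17a1, the transmembrane collagen beside Itgb4, rose from a mean of 2.07 CPM to 22.6 and then 44.2 CPM, a log2 fold change of 4.42 ± 0.27 over the span (edgeR quasi-likelihood, Benjamini-Hochberg adjusted p = 2.38e-06), and the other 3 (Dst, Plec and Cd151) were not DEGs. The 16 epithelium markers summed to 643–1172, 696–714 and 960–1062 CPM at the successive stages. They did not move as 1 group: Krt5, Krt14 and Krt15 were DEGs with higher level over the span, Krt5 from a mean of 2.12 to 151 CPM and Krt14 from 16.04 to 158 CPM, Krt18 was a DEG with lower level, and the median log2 fold change was -0.14. With all libraries, 9.97 and 5.08% of all genes were DEGs with higher and lower level. When the third E10.5 library was left out, 6 epithelium markers were DEGs with higher and none with lower level by edgeR's quasi-likelihood test. In that fit 16.6% of all genes were DEGs in either direction. The median of the markers was then 0.18. The part of these markers in the values of Lama3, Itgb4 and Col17a1 was not tested.

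Of 29 genes for integrin ligands other than laminin, 28 were tested in E12.5 vs. E10.5, and 10 were DEGs with higher and 2 with lower level, against 9.97 and 5.08% of all genes, with a median log2 fold change of 0.75. Tnn, a tenascin, rose by 5.42 ± 0.62, Tnc, the tenascin bound by alpha8 and alpha9 integrins, by 4.59 ± 0.41, and Thbs2, a thrombospondin, by 3.62 ± 0.27, while Vtn, the vitronectin bound by the beta3 and beta5 subunits, fell by 4.01 ± 0.82 on the log2 scale. The lower level was near that of 3 counts for Tnn (0.196 CPM at E10.5) and Vtn (0.112 CPM at E12.5). Fn1, the fibronectin gene, had a mean of 447 CPM at E10.5 and 733 CPM at E12.5 and did not pass (0.72 ± 0.29, edgeR quasi-likelihood, Benjamini-Hochberg adjusted p = 0.0893). In E11.5 vs. E10.5, 9 of 27 tested ligand genes were DEGs with higher and 1 with lower level, against 3.46 and 2.61% of all genes, and in E12.5 vs. E11.5, 7 of 26 were higher and none lower, against 4.14 and 0.962%. Without the third E10.5 library the counts were 9 higher and 2 lower over the span and 8 and 2 in E11.5 vs. E10.5. In these fits 16.6% and 9.79% of all genes were DEGs in either direction. The 12 mesenchyme markers, 1 of which is also a ligand gene, summed to 1858–3128, 4833–5509 and 6824–7926 CPM at the 3 stages, and their part in these counts was not tested.

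Of 36 genes that link integrins to the cytoskeleton, none was a DEG in E11.5 vs. E10.5 with edgeR's quasi-likelihood test, 1 was higher and 1 lower in E12.5 vs. E11.5, and 3 were higher and 2 lower in E12.5 vs. E10.5, where the median log2 fold change was 0.01. The shares of all genes were 3.46% higher and 2.61% lower, 4.14 and 0.962%, and 9.97 and 5.08% in the same order. Without the third E10.5 library 2 were higher and 2 lower over the span, against 16.6% of all genes in either direction. Those with the largest change over the span were Tns4, a tensin of epithelia, which fell by 1.55 ± 0.33 on the log2 scale, Tgfb1i1, the paxillin relative Hic-5, which rose by 1.51 ± 0.25, Apbb1ip, the talin recruiter RIAM, which rose by 1.21 ± 0.33, and Parvb, the parvin beta adaptor, which fell by 1.15 ± 0.21. Of the 8 other laminin receptors, 7 were tested and none was a DEG in any comparison with edgeR's quasi-likelihood test. Over the span 2 of them passed the adjusted p alone with higher and 1 with lower level, against 24.6% of all genes in either direction. Dag1, the dystroglycan gene, fell by 0.91 ± 0.21 on the log2 scale (edgeR quasi-likelihood, Benjamini-Hochberg adjusted p = 0.0102). Sgcb rose by 0.77 ± 0.18 and Sgce by 0.65 ± 0.20 (edgeR quasi-likelihood, Benjamini-Hochberg adjusted p = 0.0107 and 0.0337).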

How the data were processed

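RNA was extracted with Trizol from pooled lambdoidal junctions and sequenced from TruSeq libraries. Per the labels and the methods of the study, the authors aligned reads to mm10 with HISAT2 2.0.5 and obtained gene counts from featureCounts 1.5.0-p3, and the deposited values used here are these raw counts. The authors also deposited FPKM values made from counts and gene length, used here only as an alternative for the laminin chain shares. Whether counting used strand is not given in the sources used here. Only the 6 libraries of a pair of stages entered its fit, made with edgeR 4.0.16 in R 4.3.3 (filterByExpr, TMM factors, glmQLFit and glmQLFTest) over all genes, with Benjamini-Hochberg adjustment. SEs were taken from the fold change and its F value. The difference between the intervals was a contrast in 1 fit of all 9 libraries. Levels are CPM after TMM scaling, divided by the deposited gene length in kilobases where genes are compared. The fits were tested on simulated counts with the same dispersion for every gene and no library that stood apart. That test therefore does not cover a library such as the third of E10.5.

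The genes and lists were chosen with earlier results of these data known. Values per library were given for DEGs, for the gene of each class with the highest level per length, and for Itgb1 and Lamc1, and up to 4 called genes of each other list were named by the size of their change over the span. Itga4, Frem2, Col4a1, Col4a2, Fn1, Sgcb, Sgce and the further integrin and laminin genes described by range were added after their values were seen. Nothing says that the libraries of a stage are separate litters, so p-values measure the spread between libraries. Replicates differed beyond sampling noise (chi-square per degree of freedom 4.42–68.3). Alternatives were other normalizations, DESeq2 1.42.0, no filter, 1 fit of all libraries, removal of GC or length trends (lowess, span 0.3), a replicate block and leaving out each library. The values of 1 gene are not reported here, though it is counted among the genes tested.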

Additional observations from a re-analysis of the deposited data

How the results depend on the processing

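In E11.5 vs. E10.5, where 2 genes were DEGs, 7 passed without the fold threshold, 4 were called with DESeq2, with all genes of at least 1 count, with all 9 libraries in 1 fit or with the GC trend removed, and 6 with the GC trend removed and the third E10.5 library left out. Leaving out 1 library gave 2–6 calls there, 6–13 in E12.5 vs. E10.5 (10 with all libraries) and 2–4 in E12.5 vs. E11.5 (3 with all), with 6 calls without the third E10.5 library in both comparisons with E10.5. In the comparisons of E11.5 and E12.5 with E10.5, 6.07% and 15.0% of all genes were DEGs. Without the third E10.5 library, 9.79% and 16.6% were. Without the fold threshold the share in E11.5 vs. E10.5 was 11.8%. The shares of all genes in the other fits are not given, so the counts in those fits cannot be set against a background. For the difference between the intervals, with 0 calls, there were 4 with all genes of at least 1 count and 0–1 without 1 library, the 1 being reached without E10.5 replicate 3 or E12.5 replicate 2. The correlations of same-numbered libraries of different stages ran from -0.151 to 0.22, and those of different-numbered ones from -0.219 to 0.223. Between E10.5 and E12.5 the ranges were 0.0701 to 0.22 and -0.219 to 0.153. These ranges do not settle whether the replicate numbers pair the libraries. A replicate block gave 3, 3, 13 and 2 calls. Direction changed in some fits for genes near 0, in every comparison of stages. In E12.5 vs. E10.5 the log2 fold change without 1 library ran from -0.33 to 0.19 for Nid1 and from -0.47 to 0.18 for Nid2. With the replicate block it was 0.012 there for Nid2. The range was -0.61 to 1.49 for Lamc3 in E11.5 vs. E10.5, and -0.48 to 0.08 for Lama2 in E12.5 vs. E11.5. The removal of the length trend, and that of the GC trend without a library, were chosen after seeing the data. The cause of these differences was not tested. Genes with few counts, such as Lama3 at E10.5 and the leukocyte integrins, are limited by depth.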
